A study of Homo sapiens with 6 samples.

Results

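The LIM-domain and focal adhesion proteins examined here are ZYX, LPP, PXN, TGFB1I1, LIMS1, PDLIM5, PDLIM7, FHL2, VCL and TLN1. They were taken as every probe set of the array that its annotation assigns to only 1 of these 10 genes, which gave 39 of the 54613 probe sets that are not controls. A probe set is a group of short probes that together read 1 stretch of a transcript. The arrays were from Panc-1, an established cell line from a human pancreatic adenocarcinoma, in which the study examined epithelial-mesenchymal transition (EMT), the loss of cell-cell contacts and gain of motility that TGFβ induces. The TGFβ group held 3 arrays of cells starved of serum for 24 h and then given 5 ng/mL porcine TGFβ1 for 48 h. The untreated group held 3 arrays of the same line, starved of serum for the same 24 h and then kept in medium without TGFβ. The labels give the 5 ng/mL used here, whereas the methods state the same figure in nM, and the conflict is not settled. All 6 arrays came from 1 cell line, and the experiment was carried out 3 times.

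Focal adhesions are the places where integrins, the receptors for extracellular matrix, are joined through a layer of cytoplasmic proteins to actin filaments. Talin binds the integrin tail and vinculin strengthens its link to actin. LIM domains are zinc-binding folds that serve as docking surfaces, and many proteins that carry them gather at adhesions and stress fibres when the cytoskeleton is under tension. Several also enter the nucleus, where they act as transcriptional cofactors. In EMT, cells exchange cell-cell junctions for matrix adhesions and stress fibres.

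Values are log2 signals as deposited, and a change is the mean of the 3 TGFβ arrays minus the mean of the 3 untreated arrays. Following the methods of the study, a probe set was tested if its mean signal reached 100 (6.64 on the log2 scale) in at least 1 group. A gene's value is the mean over its probe sets past this limit. Tests are limma's, two-sided, with Benjamini-Hochberg adjustment over all 10115 genes or all 19101 probe sets past the limit, and an adjusted p under 0.05 counted as changed. The standard error (SE) is that of the model.

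Of the 39 probe sets, 20 passed the limit, for 9 of the 10 genes. LIMS1 had none. For 17 of the 20 the mean was past the limit in both groups. The other 3 were those of PDLIM7, which passed through the TGFβ group alone and so had to differ. The dimmest probe set past the limit, of PDLIM7, reached 6.92 in its higher group, and the brightest one left out, also of PDLIM7, reached 6.59.

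Across the array, 58.7% of genes changed, 27.7% higher with TGFβ and 31% lower, so a call in itself was common. Of the 9 member genes measured, 7 rose, 1 fell and 1 did not pass the test. Their median change was 0.46, beside -0.013 for all genes. ZYX rose the most, by 1.78, and LPP was the gene that fell, by 0.29 on the log2 scale. A rise of at least 1.5-fold was found for ZYX, PDLIM7, PXN and TGFB1I1, 4 of the 9, against 6.2% of all genes. No member was lower by that much, against 7.22% of all genes. The members were chosen with earlier results of these data known, so these counts and shares are not a test. PDLIM7, past the limit through the TGFβ group alone, had to differ, and the study had singled out TGFB1I1 from these arrays. In 7 genes all TGFβ arrays lay above all untreated arrays, as in 32.7% of genes, and in LPP all lay below, as in 35.5%. Fewer cells expressing a gene and less RNA per cell cannot be told apart in bulk RNA.

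**Figure D1:**
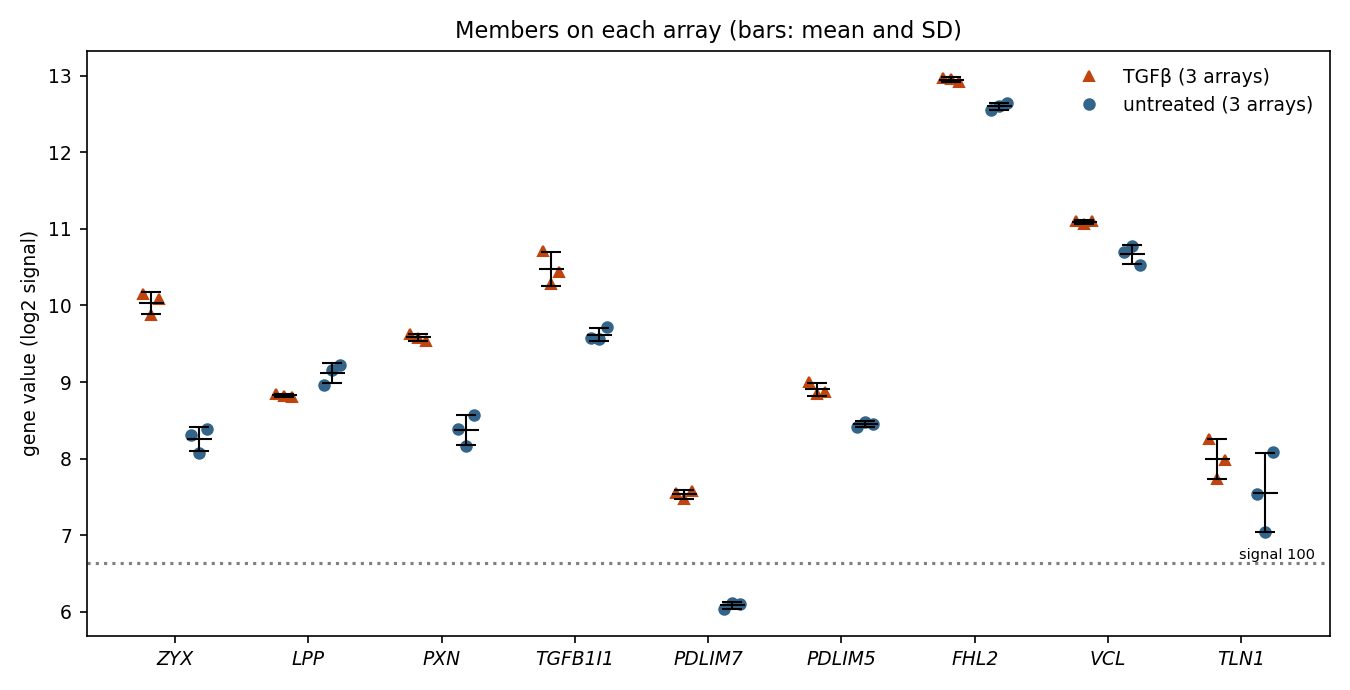
Gene values (log2 signal, vertical axis) of the 9 members past the signal limit on each array, with TGFβ arrays as triangles at the left and untreated arrays as circles at the right of each gene; horizontal bars give the mean and error bars the SD (n = 3 arrays per group), and the dotted line marks a signal of 100. ZYX and PDLIM7 are the most widely separated, LPP is lower with TGFβ, and the TLN1 groups overlap.

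The arrays were alike within groups. Their median signals were 5.14 to 5.21, and gene values of the same group correlated at 0.995 or above, against 0.950 to 0.953 between groups. The carcinoma markers KRT8, KRT18, EPCAM and CDH1 were past the limit and lower with TGFβ, CDH1 through the untreated group alone (5.56 with TGFβ and 7.58 in untreated cells), so that it had to differ. KRT7 and SOX9 were past the limit and did not pass the test, and KRT19 reached the limit in neither group. The log2 of the summed signal of these 7 markers was 12.7 to 12.8 on the TGFβ arrays and 13.8 on each untreated array. None of the 15 markers of fibroblasts, leukocytes, endothelium and muscle with a probe set of their own reached the limit in either group. The summed fibroblast level was 7.70 to 7.84 on the TGFβ arrays and 7.70 to 7.75 on the untreated arrays, and the muscle level was 7.92 to 7.95 on the TGFβ arrays and 7.84 to 7.97 on the untreated arrays. The difference between the 3′ and 5′ control probe sets of ACTB, used as a measure of RNA integrity, was 0.33 ± 0.060 with TGFβ and 0.55 ± 0.031 in untreated cells (SD, n = 3). That of GAPDH was -0.028 ± 0.023 with TGFβ and -0.0096 ± 0.0096 in untreated cells. The ACTB levels themselves rose with TGFβ, by 0.28 for the 3′ and 0.50 for the 5′ probe set, whereas those of GAPDH changed by 0.010 and 0.029. How much of the ACTB difference is RNA integrity, and its part in the results below, was not tested.

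The zyxin family comprises proteins with LIM domains at their carboxyl end. ZYX (Entrez 7791, chromosome 7) encodes zyxin, which moves to strained stress fibres and recruits Ena/VASP proteins for actin repair. Its gene value was 10.1, 9.87 and 10.1 on the TGFβ arrays, against 8.31, 8.08 and 8.38 on the untreated arrays. The groups were far apart relative to their spread, and every TGFβ array exceeded every untreated array by more than 1 log2 unit. The rise was 3.42-fold (log2 1.78, SE 0.053, adjusted p = 7.42e-06 by limma), the 51st in size among all genes tested. Both of its probe sets rose, 200808_s_at by 1.85 (SE 0.070) and 215706_x_at by 1.70 (SE 0.055).

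LPP (Entrez 4026, chromosome 3) encodes lipoma-preferred partner, the closest relative of zyxin, which shares its sites at adhesions and cell-cell contacts. Its gene value was 8.84, 8.82 and 8.81 with TGFβ, against 8.96, 9.16 and 9.22 in untreated cells. The groups did not overlap, but the nearest arrays differed by little. The change was -0.29 (SE 0.068, 1.22-fold lower, adjusted p = 0.0121 by limma). The call was lost without replicate 2 (-0.26, adjusted p = 0.0676) and without replicate 3 (-0.23, adjusted p = 0.0629).

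Of the 4 LPP probe sets past the limit, 3 fell and 1 did not pass the test. The brightest, 202822_at, gave 9.67, 9.68 and 9.71 with TGFβ, and its untreated mean was 10.0 ± 0.014, a change of -0.35 (SE 0.053, adjusted p = 0.00252). Probe set 224811_at changed by -0.49 (SE 0.090, adjusted p = 0.00503) and 235000_at by -0.35 (SE 0.062, adjusted p = 0.00443). These 3 were lower on every TGFβ array. The fourth, 241879_at, had 9.31, 9.32 and 9.01 with TGFβ, against 8.79, 9.52 and 9.24 in untreated cells, so that the groups overlapped (change 0.030, SE 0.15, adjusted p = 0.879). Untreated replicate 1 was the lowest of its 6 arrays, and without replicate 1 its change was -0.21 (adjusted p = 0.0145). No LPP probe set differed from 202822_at past the threshold, and for 241879_at the difference was 0.38 (SE 0.15, adjusted p = 0.107).

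The changes of ZYX and LPP differed by 2.07 on the log2 scale. In an exact permutation test over the 20 assignments of 6 arrays to 2 groups of 3, two-sided, p was 0.1, the smallest this design allows, and it cannot reach 0.05. The zyxin relative AJUBA, which also shuttles to the nucleus, was lower (-0.50, SE 0.067, adjusted p = 0.0013), and WTIP was higher (0.26, SE 0.058, adjusted p = 0.0097). LIMD1 had a change of -0.015 (adjusted p = 0.863), and TRIP6 and FBLIM1 were below the limit. The family thus held genes that rose and genes that fell, with ZYX at the upper end.

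**Figure D2:**
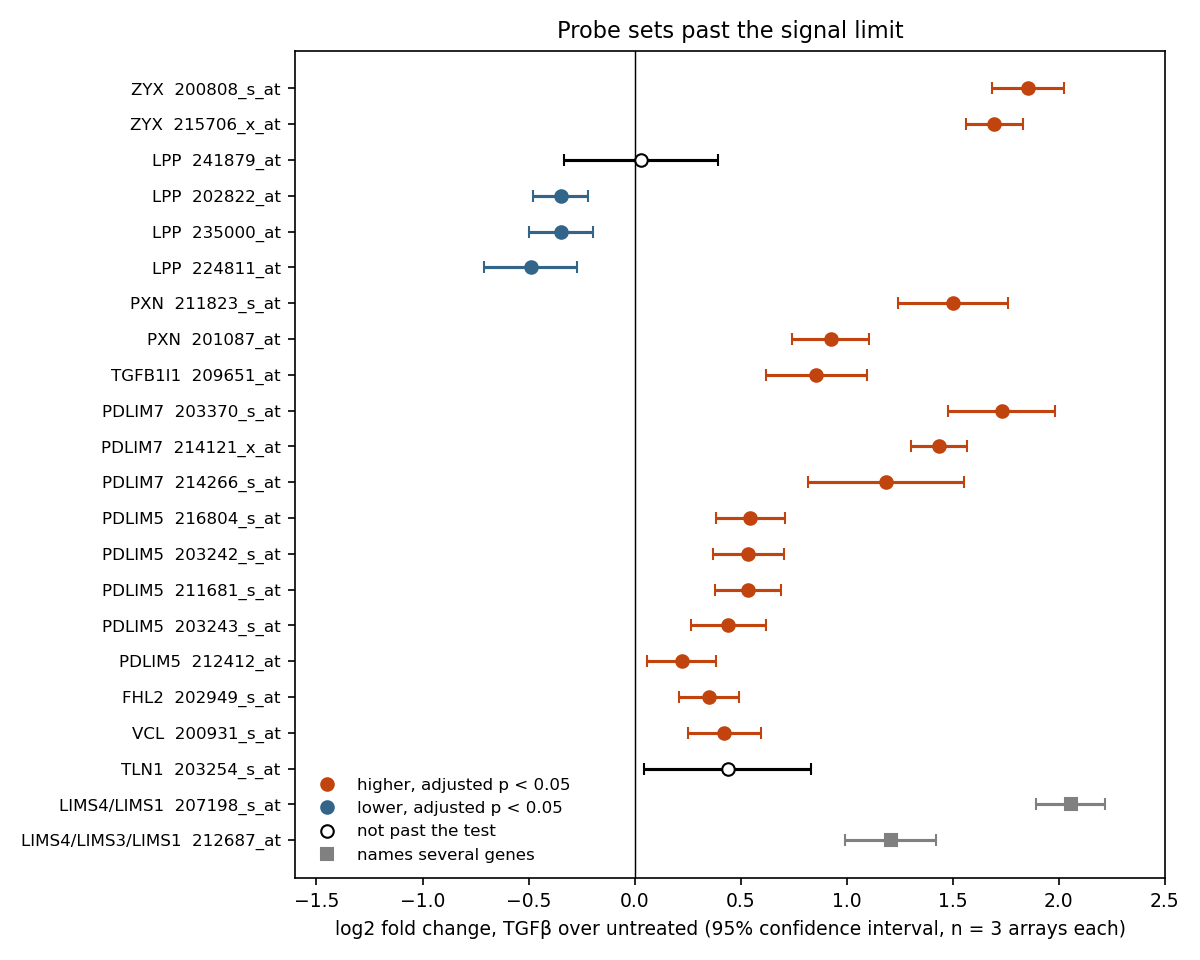
Log2 fold change of TGFβ over untreated (horizontal axis) with its 95% confidence interval for the 20 member probe sets past the limit, and below them for the 2 probe sets that name LIMS1 together with other genes (grey squares); n = 3 arrays per group. Filled red is higher, filled blue lower and open not past the test. The probe sets of ZYX, PXN and PDLIM7 lie far to the right, 3 of LPP lie left of 0, and those of PDLIM5 cluster between 0.22 and 0.54.

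The paxillin family provides scaffolds that bind focal adhesion kinase and vinculin. PXN (Entrez 5829, chromosome 12), paxillin itself, had gene values of 9.63, 9.58 and 9.54 with TGFβ, against 8.38, 8.17 and 8.56 in untreated cells. The groups did not overlap, and the untreated arrays had the wider spread. The rise was 2.32-fold (log2 1.21, SE 0.086, adjusted p = 0.000116 by limma). TGFB1I1 (Entrez 7041, chromosome 16) encodes Hic-5, a paxillin relative named for its induction by TGFβ that also acts as a nuclear receptor cofactor. It had 10.7, 10.3 and 10.4 with TGFβ, against 9.57, 9.57 and 9.72 in untreated cells, again without overlap. The rise was 1.81-fold (log2 0.86, SE 0.095, adjusted p = 0.000614 by limma). TGFB1I1 was among the genes that the study singled out from these arrays, so its direction is not independent of that choice.

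The 2 probe sets of PXN rose by different amounts. Probe set 211823_s_at was 8.57, 8.49 and 8.39 with TGFβ, against 7.03, 6.73 and 7.18 in untreated cells, a change of 1.5 (SE 0.11). Probe set 201087_at averaged 10.7 ± 0.012 with TGFβ and 9.76 ± 0.17 in untreated cells, a change of 0.92 (SE 0.075). Tested as a within-array difference, 211823_s_at rose by 0.58 more (SE 0.077, adjusted p = 0.00256 over 6952 such differences by limma). It was the only one of 11 such differences among the members to pass, where 30.4% of all differences did. For the paxillin pair, TGFB1I1 rose less than PXN by 0.36 (exact permutation p = 0.1, the smallest possible), but with the brightest probe set of each gene the difference was -0.068 (exact permutation p = 0.7). LPXN, the third gene of the family, was below the limit.

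PDZ-LIM proteins carry, beside their LIM domains, a PDZ domain that ties them to actin filaments. PDLIM7 (Entrez 9260, chromosome 5), known as enigma, had gene values of 7.55, 7.47 and 7.58 with TGFβ, against 6.04, 6.12 and 6.10 in untreated cells. The untreated arrays lay below the signal limit, and the groups were widely separated. The rise was 2.73-fold (log2 1.45, SE 0.055, adjusted p = 1.38e-05 by limma), and over all 7 of its probe sets, with no limit, it was 0.84. Its 3 probe sets past the limit rose by 1.73, 1.43 and 1.19. Of the 4 left out, 203369_x_at rose by 0.58 (adjusted p = 0.00334) and 1569150_x_at by 0.51 (adjusted p = 0.00391) in the fit without a limit. In that fit 1569149_at (0.33, adjusted p = 0.154) and 214122_at (0.12, adjusted p = 0.420) did not pass, and their groups overlapped. Every PDLIM7 probe set that rose thus ends in _x_at or _s_at.

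PDLIM5 (Entrez 10611, chromosome 4), enigma homolog, binds protein kinase C. It had 9.0, 8.85 and 8.87 with TGFβ, against 8.41, 8.48 and 8.46 in untreated cells. The groups did not overlap, and the rise was 1.37-fold (log2 0.46, SE 0.061, adjusted p = 0.0013 by limma). Over all 10 of its probe sets, with no limit, it was 0.24, and without probe sets ending in _x_at or _s_at, which leaves 212412_at alone, it was 0.22. All 5 of its probe sets past the limit rose, 4 of them by 0.44 to 0.54. The fifth, 212412_at, rose by 0.22 (SE 0.066, adjusted p = 0.0304). It lost its call without replicate 1 (0.17, adjusted p = 0.0510), without replicate 3 (0.20, adjusted p = 0.131), with median centring (adjusted p = 0.0615) and without the limit (adjusted p = 0.0918). PDLIM7 rose by 0.99 more than PDLIM5 (exact permutation p = 0.1, the smallest possible), a value that rests on PDLIM7 probe sets past the limit with TGFβ alone, and with no limit the difference was 0.60. The relatives PDLIM1 (-0.11, adjusted p = 0.129) and PDLIM2 (0.18, adjusted p = 0.108) did not pass the test.

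FHL2 (Entrez 2274, chromosome 2) consists of LIM domains alone and serves as a cofactor of integrins, of serum response factor and of other transcription factors. Its single probe set was among the brightest here, with 13.0, 13.0 and 12.9 with TGFβ, against 12.6 on each untreated array. The groups did not overlap, and the rise was 1.27-fold (log2 0.35, SE 0.053, adjusted p = 0.00215 by limma). Its relative FHL3 rose by 1.00 (SE 0.066, adjusted p = 8.76e-05).

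Of the linkers between integrins and actin, VCL (Entrez 7414, chromosome 10), vinculin, had 11.1 on each TGFβ array, against 10.7, 10.8 and 10.5 on the untreated arrays. The groups did not overlap, and the rise was 1.34-fold (log2 0.42, SE 0.066, adjusted p = 0.00243 by limma). A second probe set of VCL was dim (4.49 with TGFβ and 4.46 in untreated cells), and with it included the gene value no longer passed (0.23, adjusted p = 0.0709).

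TLN1 (Entrez 7094, chromosome 9), talin, was the member whose groups overlapped. Its probe set past the limit, 203254_s_at, had 8.26, 7.74 and 7.99 with TGFβ, against 7.54, 7.05 and 8.09 in untreated cells. Untreated replicate 3 was above 2 of the 3 TGFβ arrays, and the spread of the untreated arrays was the widest of any member (SD 0.52). The change was 0.44 (SE 0.16, 95% confidence interval 0.049 to 0.83, adjusted p = 0.0554 by limma), just short of the threshold. It was 0.71 without replicate 3 (adjusted p = 0.000175), but 0.30 without replicate 1 (adjusted p = 0.143) and 0.31 without replicate 2 (adjusted p = 0.210). Without the replicate block the adjusted p was 0.146. A dimmer probe set, 236132_at, had 6.44, 6.51 and 6.51 with TGFβ, against 5.96, 6.10 and 6.20 in untreated cells, with no overlap (0.40, adjusted p = 0.00684 in the fit without a limit).

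LIMS1 (Entrez 3987, chromosome 2) encodes PINCH-1, a LIM-domain partner of integrin-linked kinase. Its 3 single-gene probe sets had group means of 3.51 to 3.94, at the bottom of the signal range, with changes of 0.074 to 0.11 and adjusted p of 0.555 to 0.725 without the limit. The 2 probe sets that name LIMS1 together with its near-identical copies were bright and were left out by the rule that chose the members. They are given because the others were dim, a choice made after their values were seen. Probe set 207198_s_at, annotated to LIMS1 and LIMS4, had 11.6, 11.6 and 11.4 with TGFβ, against 9.59, 9.56 and 9.23 in untreated cells, and rose 4.16-fold (log2 2.06, SE 0.066, adjusted p = 1.32e-05). Probe set 212687_at, annotated to LIMS1, LIMS3 and LIMS4, had 12.2, 12 and 12 with TGFβ, against 10.8, 10.9 and 11.0 in untreated cells, and rose 2.31-fold (log2 1.21, SE 0.088, adjusted p = 0.000165). In neither probe set did the groups overlap, but the signal cannot be assigned to 1 of the copies.

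**Figure D3:**
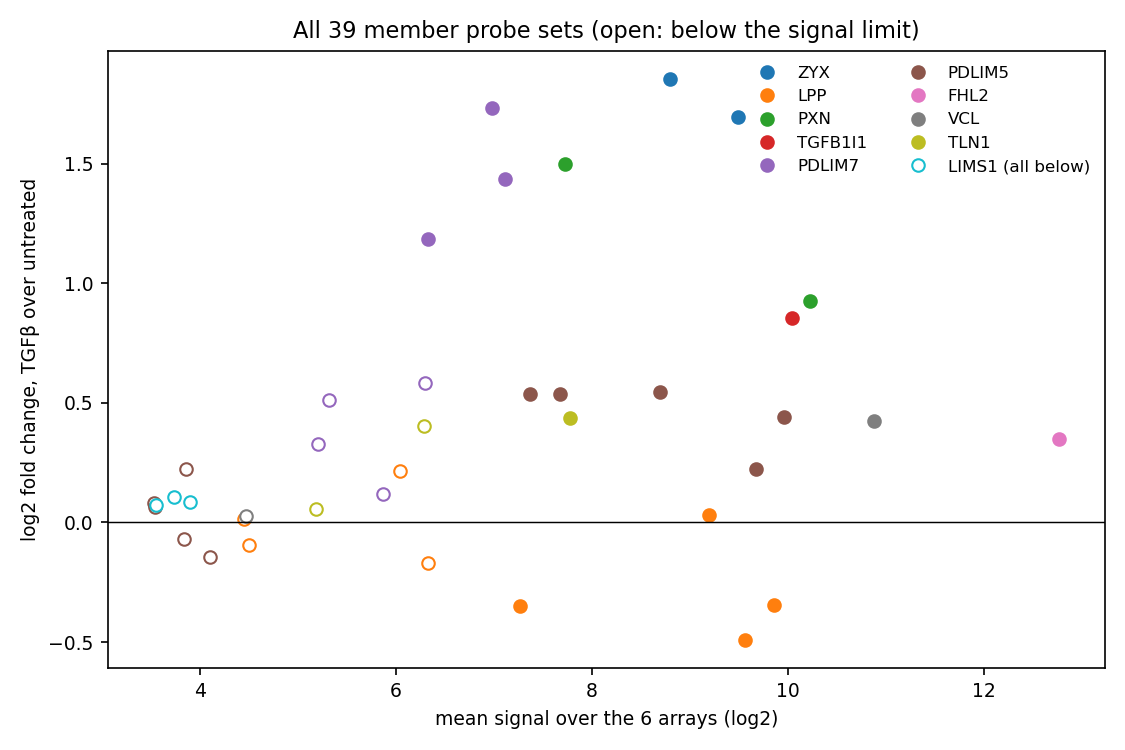
Log2 fold change of TGFβ over untreated (vertical axis) against the mean log2 signal over the 6 arrays (horizontal axis) for all 39 member probe sets, coloured by gene; open circles are below the limit in both groups. The 19 open circles lie between -0.17 and 0.58, and the 3 LIMS1 probe sets are at the dim end near 0.

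Over all 39 probe sets with no limit on signal, 17 rose and 3 fell, beside 9.22% and 11% of all probe sets. Of the 39, 20 were past the limit, against 19101 of all 54613, so these shares do not compare probe sets of like signal. Of the 19 below the limit, 3 rose and 16 did not pass in that fit. In the fit with the limit, 15 of the 20 past it rose, 3 fell and 2 did not pass. The 15 include the 3 of PDLIM7, which passed through the TGFβ group alone and so had to differ. Among all probe sets past the limit 26.6% were higher, 28.5% lower and 55.1% changed in either direction. PDLIM5 probe set 212412_at passed only in the fit with the limit, so these counts do not add up to the 17. Many probe sets share a gene, and the members were chosen with earlier results known, so no count here is a test. The dim probe sets of PDLIM5 (3.49 to 4.18) and of LPP (4.44 to 6.41) had changes from -0.14 to 0.22 and from -0.17 to 0.22. LPP probe set 202821_s_at had 6.25, 6.11 and 6.11 with TGFβ, against 6.02, 6.03 and 5.77 in untreated cells. All its TGFβ arrays thus lay above, opposite to the fall of the gene value, but it did not pass (adjusted p = 0.106 by limma without the limit). The groups of the other dim LPP probe sets overlapped.

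The pattern of ZYX over the 6 arrays was set against that of every other gene by the root mean square distance between centred log2 values. The nearest were SMOX (0.043), a polyamine oxidase, UBASH3B (0.0755), a phosphatase, and PYGL (0.0929), liver glycogen phosphorylase. SMOX had 8.69, 8.5 and 8.59 with TGFβ, against 6.86, 6.66 and 6.89 in untreated cells, a rise of 1.79. Likeness here rests on 6 arrays in 2 groups, and any gene with a rise of similar size lies close.

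The promoters of 4 members are shown, as the 250 bases before the RefSeq start of the gene (GRCh38.p14), with the matches to 4 motifs in capitals. ZYX and LPP are the related genes that moved in opposite directions, and FHL2 and VCL hold the rarer motifs. The motifs, searched on both strands, were the CArG box that serum response factor binds, CAGAC, which SMAD proteins bind, TGANTCA of AP-1, and GGAATG of TEAD factors. No match overlapped another.
ZYX promoter, chr7:143381095-143381344, plus strand: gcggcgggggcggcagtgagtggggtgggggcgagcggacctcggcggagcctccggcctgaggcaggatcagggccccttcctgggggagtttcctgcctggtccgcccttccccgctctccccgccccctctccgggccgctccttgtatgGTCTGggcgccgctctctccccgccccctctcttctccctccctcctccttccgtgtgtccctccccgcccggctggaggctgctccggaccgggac
LPP promoter, chr3:188153648-188153897, plus strand: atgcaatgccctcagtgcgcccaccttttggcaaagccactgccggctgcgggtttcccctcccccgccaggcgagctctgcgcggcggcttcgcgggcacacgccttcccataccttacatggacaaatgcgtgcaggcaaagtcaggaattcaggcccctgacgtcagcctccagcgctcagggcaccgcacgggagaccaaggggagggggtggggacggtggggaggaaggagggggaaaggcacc
FHL2 promoter, chr2:105438514-105438763, minus strand: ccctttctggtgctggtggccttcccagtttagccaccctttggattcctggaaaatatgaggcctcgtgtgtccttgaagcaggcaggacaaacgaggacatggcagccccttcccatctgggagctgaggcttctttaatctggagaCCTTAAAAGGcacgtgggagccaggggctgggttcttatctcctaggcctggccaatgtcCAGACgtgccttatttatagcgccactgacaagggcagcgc
VCL promoter, chr10:73997866-73998115, plus strand: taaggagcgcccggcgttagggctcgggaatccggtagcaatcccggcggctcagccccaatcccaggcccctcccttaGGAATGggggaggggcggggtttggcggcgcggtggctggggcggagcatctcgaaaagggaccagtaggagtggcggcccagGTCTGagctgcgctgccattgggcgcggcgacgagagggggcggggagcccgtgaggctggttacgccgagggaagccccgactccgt

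Each of the 10 members had a promoter in the table. A CArG box was present in 1 of the 10, that of FHL2, where CCTTAAAAGG began 101 bases before the start, beside 1.16% of all 35114 promoters. CAGAC, read as GTCTG where it lies on the other strand, was present in 4 (ZYX, LIMS1, FHL2 and VCL), beside 38% of all promoters. GGAATG was present in VCL alone, beside 11.9%, and TGANTCA in none, beside 6.57%. The LPP window held none of the 4 motifs. A match is a description of the letters and not of binding.

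The other genes of adhesions and LIM families were counted in 12 lists by role. Of 113 such genes without the members, 74 were past the limit, of which 34 were higher, 15 were lower and 25 did not pass, with a median change of 0.14. The counts in these lists stand beside 27.7% higher, 31% lower and 58.7% called in either direction among all genes, and nothing particular to a list is read from them. The ILK-PINCH-parvin complex, which couples integrins to actin beside talin, had 4 of 5 measured genes higher and none lower. These were LIMS2 (0.84, SE 0.15), PARVB (0.67, SE 0.049), RSU1 (0.53, SE 0.073) and the scaffold ILK (0.51, SE 0.050), while PARVA had a change of 0.039 (adjusted p = 0.603). The gene value of LIMS2, which encodes PINCH-2, was past the limit in the TGFβ group alone (6.93 with TGFβ and 6.09 in untreated cells), so that it had to differ.

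Among the linkers, with VCL and TLN1 counted, 3 of 8 rose and 3 fell. Of those that fell, TNS2 was past the limit in the untreated group alone (5.75 with TGFβ and 6.72 in untreated cells), so that it had to differ. The kindlin FERMT1, which activates integrins with talin, rose by 0.69 (SE 0.049), whereas the tensin TNS3, which binds integrin tails, was lower at 11.1 ± 0.19 with TGFβ and 12.6 ± 0.061 in untreated cells (-1.42, SE 0.081, adjusted p = 5.21e-05). Of the Ena/VASP and actin assembly genes, 4 of 9 rose and none fell, with ENAH (Mena) the highest at 1.03 (SE 0.051). In the adhesion kinases and adaptors 8 of 20 rose and 2 fell, led by the adaptor BCAR3 (0.68, SE 0.076), and the lowest was DOCK1, an activator of Rac (-0.20, SE 0.071, adjusted p = 0.0470).

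The other LIM proteins moved both ways. Of 8 genes measured in the list named other actin-binding LIM proteins, 4 rose and 4 fell. The name is that of the list, and actin binding of each gene was not tested. LMCD1, a LIM protein with a cysteine-rich domain, rose by 2.09 (SE 0.048, adjusted p = 4.31e-06), TES (testin), a partner of zyxin, rose by 1.18 (SE 0.049), and MICAL2, an enzyme that oxidises actin, was lower (-1.11, SE 0.070). In the CRP and CRIP family 2 rose and 2 fell, with CSRP1 highest (0.66) and CRIP2 lowest (-0.56). Of the LIM kinases and cofilin regulators 5 of 10 rose and 2 fell. The gene value of LIMK1, which inactivates cofilin, was also past the limit in the TGFβ group alone (6.86 with TGFβ and 5.87 in untreated cells, 0.99), and the related kinase TESK2 in the untreated group alone (6.35 with TGFβ and 7.17 in untreated cells, -0.81), so that both had to differ. Serum response factor and its cofactors, which control many adhesion and actin genes, had 3 of 6 higher and 1 lower. ELK3, a gene the study also singled out, was at 0.85 and MRTFB at -0.35. The gene value of MRTFA, counted as higher, was past the limit in the TGFβ group alone (7.19 with TGFβ and 6.51 in untreated cells).

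**Figure D4:**
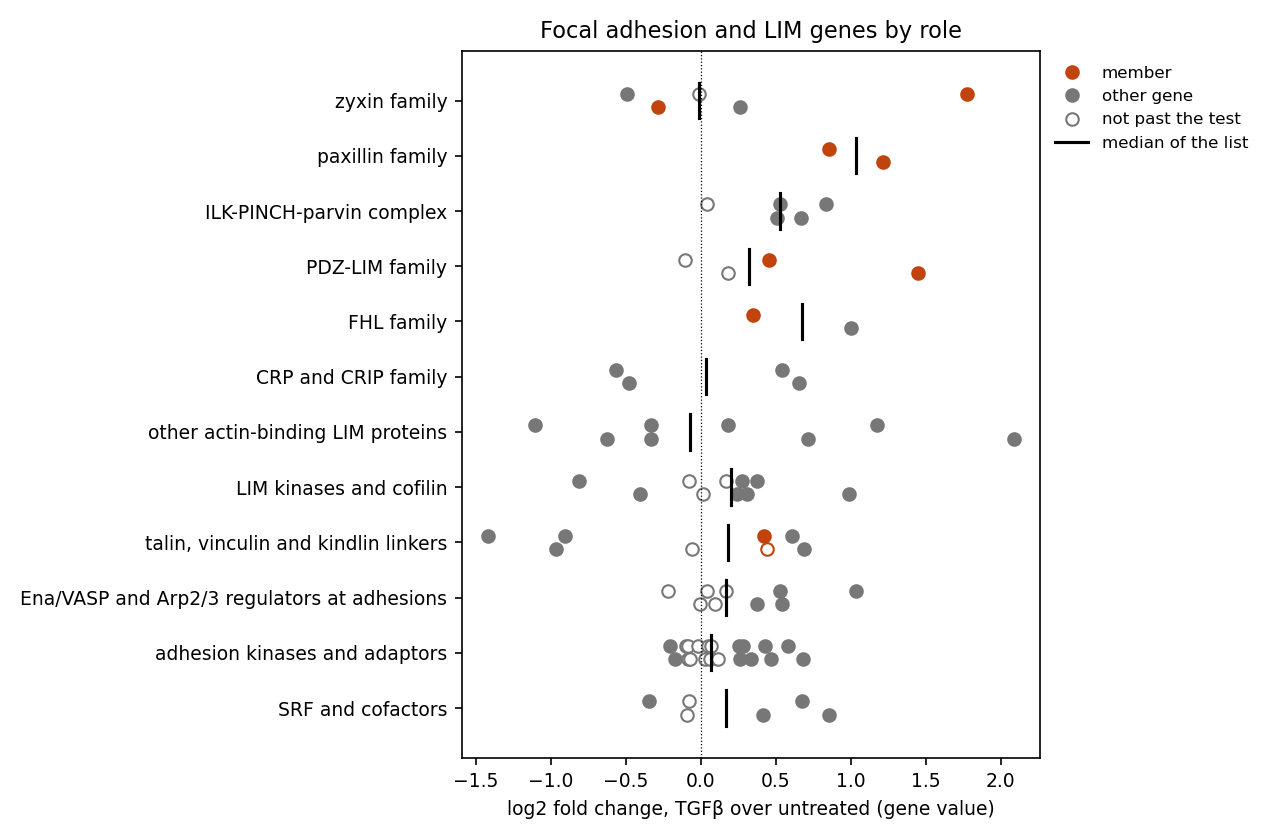
Log2 fold change of TGFβ over untreated (horizontal axis) of each gene past the limit in the 12 lists (rows), with members in red, other genes in grey, open circles for genes that did not pass the test and a vertical bar at the median of each list. The paxillin family, the FHL family and the ILK-PINCH-parvin complex have no gene below 0, whereas the zyxin family and the other actin-binding LIM proteins spread to both sides.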

How the data were processed

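Total RNA was purified, copied into biotinylated cRNA and hybridised to Affymetrix U133 Plus arrays. The table deposited by the authors held log2 signals for 54675 probe sets, a unit read from the values. How the authors normalised them was not given in the sources used here. Control probe sets (62) were left out. The platform annotation named 1 gene for 41091 probe sets, several for 1801 and none for 11721, with symbols updated through RefSeq.

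limma 3.58.1 in R 4.3.3 was fitted (lmFit, eBayes) with replicate as a blocking factor, after the paired test of the methods, which left 2 residual degrees of freedom. Plots were drawn in Python 3.11.15 with matplotlib 3.10.9. Promoters came from RefSeq. The members and lists were chosen with earlier results of these data known. By rule, genes named beside the members were those with the highest and lowest change among the calls of each list. The rule also took the relatives of members in their own family and the 3 genes nearest to ZYX. PARVA, PARVB, RSU1, TNS2, TES and MRTFA were named outside this rule. The workflow was tested on simulated data. Precision is limited by the 6 arrays. The p-values of the main limma fit rest on the spread of the differences between same-numbered arrays, with the variance shared across all genes or probe sets tested. They do not measure the spread between the samples of a group. Alternatives covered the block, signal limit, normalisation, a constant before log2, variance model, probe set choice, thresholds, each replicate left out, and the methods' t-test. Of the genes listed, 8 were not analysed here because no probe set named them alone.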

Additional observations from a re-analysis of the deposited data

How the results depend on the processing

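ZYX, PDLIM7, PXN and TGFB1I1 stayed higher and past the threshold under every alternative of the limma fit over genes that gave them a value. The 7 genes higher and 1 lower became 4 and 0 at 1.5-fold or more. Without probe sets ending in _x_at or _s_at only 4 of the 9 genes had a value, and 3 were higher. ZYX and PDLIM7 were among the genes without a value there, so that this alternative could not test them. LPP, the gene that fell, was also lost without a signal limit (-0.15, adjusted p = 0.10) and at an adjusted p under 0.01, leaving 0 lower in both. Leaving out each replicate gave 7 to 8 genes higher and 0 to 1 lower, 14 to 15 probe sets higher and 3 to 4 lower. TLN1 passed in 8 of its 14 alternatives, with 0.30 to 0.71 as the range of its change.

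The 15 probe sets higher and 3 lower became 8 and 0 at 1.5-fold or more. The methods' t-test called 14 higher and 2 lower unadjusted, and 4 higher and 1 lower after Benjamini-Hochberg, the 4 being both probe sets of ZYX and 2 of PDLIM7. The adjusted p of this test was 0.0793 for TGFB1I1 and 0.0513 and 0.0548 for the probe sets of PXN. Of the within-gene differences, where 1 was higher and 0 lower, 2 were higher and 9 lower without a signal limit, 1 lower with a signal limit of 200, and 1 to 2 higher and 0 to 1 lower on leaving out a replicate. The change of LPP probe set 241879_at ranged from -0.21 to 0.16 on leaving out each replicate. The causes were not tested beyond the number of probe sets or arrays that each alternative leaves.

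Without the replicate block 7 genes were higher and 1 lower, 15 probe sets higher and 3 lower, and 1 within-gene difference was lower (PDLIM5 probe set 212412_at). The pairing of same-numbered arrays was not borne out, since their deviations from the group means correlated at -0.289, 0.242 and 0.0597. With median signals near 5.2 and a limit of 6.64, changes of dim probe sets such as those of LIMS1 could not be resolved, and the number of arrays limits the rest.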
